A study of Mus musculus with 2 samples.

Results

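The Wnt genes encode secreted signalling proteins, the frizzled (Fzd) genes their receptors in the cell membrane, and the Sfrp and Dkk genes secreted proteins that hold the pathway back. All 37 genes whose symbol is Wnt, Fzd, Sfrp or Dkk followed by a number and an optional letter were taken, of 19938 genes named on the array. They comprised 19 Wnt ligands, 10 frizzled receptors, 4 Sfrp genes and 4 Dkk genes, read by 38 of 35557 probe sets. Fetal ear RNA was compared between mice null for both Myf5 and Myod1 and wild-type mice, both on the BALB/c background and both at E18.5, close to birth, with 1 array for each genotype. Myf5 and Myod1 encode factors that turn embryonic cells into skeletal muscle, and the comparison describes which ear transcripts differ where both are missing. The dissected region of the ear is not described in the labels, nor is the number of fetuses whose RNA went on each array. A difference between genotypes and a difference in the tissue dissected therefore cannot be told apart.

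A Wnt protein binds a frizzled receptor together with a co-receptor, Lrp5 or Lrp6 for the branch that stabilises beta-catenin, and Ror2, Ryk or Ptk7 for branches that orient cells or move them. Sfrp proteins carry a frizzled-like domain and bind the ligand, whereas the classical Dkk proteins bind Lrp5 and Lrp6. In the ear, Wnt signals pattern the otic vesicle, act on sensory progenitors and, through planar cell polarity, orient the hair bundles of the cochlea, and elsewhere in the head they shape the face, skull, skin appendages and brain.

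Promoter letters are shown because the deleted factors bind the E-box, CANNTG, with CAGCTG among the forms preferred by MyoD, and because Wnt signals act on genes through TCF/LEF factors, whose site contains CTTTGAT. RefSeq windows of 300 bases, from 250 before to 50 after a start site on GRCm38.p6, were matched for 25 of the 37 genes, in 28 windows, and read on both strands. CANNTG stood in 19 of the 28 windows and in 72.3% of all 32851 windows, CAGCTG, itself a form of CANNTG, in 2 of the 28 and in 16.3%, and CTTTGAT in 2 of the 28 and in 3.73%. The 4 windows with CAGCTG or CTTTGAT follow, 5′ to 3′ in the direction of the gene, with that match in capitals. The Fzd10 window, chr5:128600856-128601155 on the plus strand, and the Wnt9a window, chr11:59306680-59306979 on the plus strand, hold CAGCTG. The Wnt5b window, chr6:119449337-119449636 on the minus strand and 1 of 3 for that gene, holds CTTTGAT, and the Wnt11 window, chr7:98834862-98835161 on the plus strand and 1 of 2, holds its reverse complement, ATCAAAG.
Fzd10: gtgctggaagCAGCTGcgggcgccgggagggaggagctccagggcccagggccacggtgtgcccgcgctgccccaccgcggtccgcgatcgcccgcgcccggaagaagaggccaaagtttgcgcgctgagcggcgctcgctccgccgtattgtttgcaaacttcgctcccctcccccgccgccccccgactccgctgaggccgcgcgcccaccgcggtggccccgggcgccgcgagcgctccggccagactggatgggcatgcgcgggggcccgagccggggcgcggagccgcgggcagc
Wnt9a: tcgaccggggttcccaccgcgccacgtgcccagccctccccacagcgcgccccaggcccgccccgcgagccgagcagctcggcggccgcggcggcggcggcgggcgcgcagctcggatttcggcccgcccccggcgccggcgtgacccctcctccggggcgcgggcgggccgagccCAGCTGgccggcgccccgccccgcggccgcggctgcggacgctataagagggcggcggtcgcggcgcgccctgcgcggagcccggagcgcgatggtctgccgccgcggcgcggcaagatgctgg
Wnt5b: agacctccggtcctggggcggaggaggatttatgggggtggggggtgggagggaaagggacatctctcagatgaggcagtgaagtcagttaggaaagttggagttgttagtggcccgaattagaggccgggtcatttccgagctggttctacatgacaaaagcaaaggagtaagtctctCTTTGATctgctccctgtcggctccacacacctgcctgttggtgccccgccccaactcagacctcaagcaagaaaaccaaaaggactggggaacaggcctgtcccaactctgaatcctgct
Wnt11: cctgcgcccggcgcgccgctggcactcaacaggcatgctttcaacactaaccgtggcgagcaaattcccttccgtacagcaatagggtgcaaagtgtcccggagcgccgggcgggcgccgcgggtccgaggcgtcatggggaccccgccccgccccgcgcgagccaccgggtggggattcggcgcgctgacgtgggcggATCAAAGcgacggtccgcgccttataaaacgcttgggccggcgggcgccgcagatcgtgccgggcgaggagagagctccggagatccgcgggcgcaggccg
The matches begin at positions -240, -74, -71 and -51 from the start site, in the order printed. A match describes these letters only and does not show that a factor binds there.

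Signals are the deposited log2 values, whose making is not settled by the labels, and a difference is the double knockout minus the wild type on that scale. A floor was set at each array's median over all probe sets, 5.70 in the double knockout and 5.65 in the wild type, and lower values were raised to it, so that the fold of a gene under the floor on 1 array and above both floors on the other is a lower bound. Of the 37 genes, 24 lay above the floor on both arrays, 2 in the wild type alone and 11 on neither. With 1 array for each genotype no test is possible, and the differences that follow lack replicates. The only error at hand is the standard deviation of the difference between probe sets of the same gene, 0.168 over 619 genes, which covers probe noise and leaves out the spread between animals.

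The arrays differed strongly in skeletal muscle markers and little in most inner ear markers. All 10 skeletal muscle markers had double knockout values at least 2-fold lower, with signals from 3.53 to 6.21 there, against 7.03 to 12.19 in the wild type. Of 10 inner ear markers 9 passed the floor on an array or both, with a median difference of 0.00 and 0 past 2-fold. Over all genes that passed, 1.71% were lower and 0.482% higher by 2-fold or more, so that 0 is not set apart from the background. Atoh1 and Otoa had the same deposited value on both arrays, as did 3.53% of all genes, while Coch differed by 0.32 and Otog by -0.19. Both lists were chosen with earlier results of these data known. Of the deleted genes, Myod1 read 6.38 in the double knockout, against 6.95 in the wild type, and Myf5 read 5.25 in knockout ear, against 5.94 in wild-type ear, below the floor in the knockout. Whether their probe sets lie in the deleted sequence is not stated in the labels, so these values check the genotypes only in part. In whole tissue, fewer cells of a type and less RNA per cell cannot be told apart.

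With low values raised to the floor, 0 of the 26 Wnt, Fzd, Sfrp and Dkk genes that passed it on an array were 2-fold apart between double knockout and wild type ear. This count depends on the floor, since Sfrp4, whose fold is a bound, was 2.07-fold lower in the double knockout as deposited. Over all 12458 genes that did so, 1.71% were lower by 2-fold or more in double knockout ear and 0.482% were higher by 2-fold or more. Beside shares that small, a count of 0 or of 1 among 26 genes is not set apart from the background. The furthest differences were those of the antagonist Sfrp4, lower by at least 1.86-fold in the double knockout, and of the ligand Wnt7b, 1.53-fold higher there. At 1.5-fold these were the only genes of the 26, 1 in each direction, against 3.62% of all genes lower and 2.25% higher. The differences of the 26 genes had a median of -0.07, against -0.01 over all genes above the floor.

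Among the 24 genes measured above both floors, the size of the difference had a median of 0.13, the same as over all 11626 such genes. It exceeded the standard deviation between probe sets in 10 of the 24, or 41.7%, against 40.5% of all such genes. Of the 24, 9 lay within 0.1 of 0, or 37.5%, against 39.6% of all. Below 0 were 14 of the 24, or 58.3%, against 51.2% of all, and above 0 were 10, or 41.7%, against 47.6%. In each of these counts the share was close to that of genes in general.

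**Figure D1:**
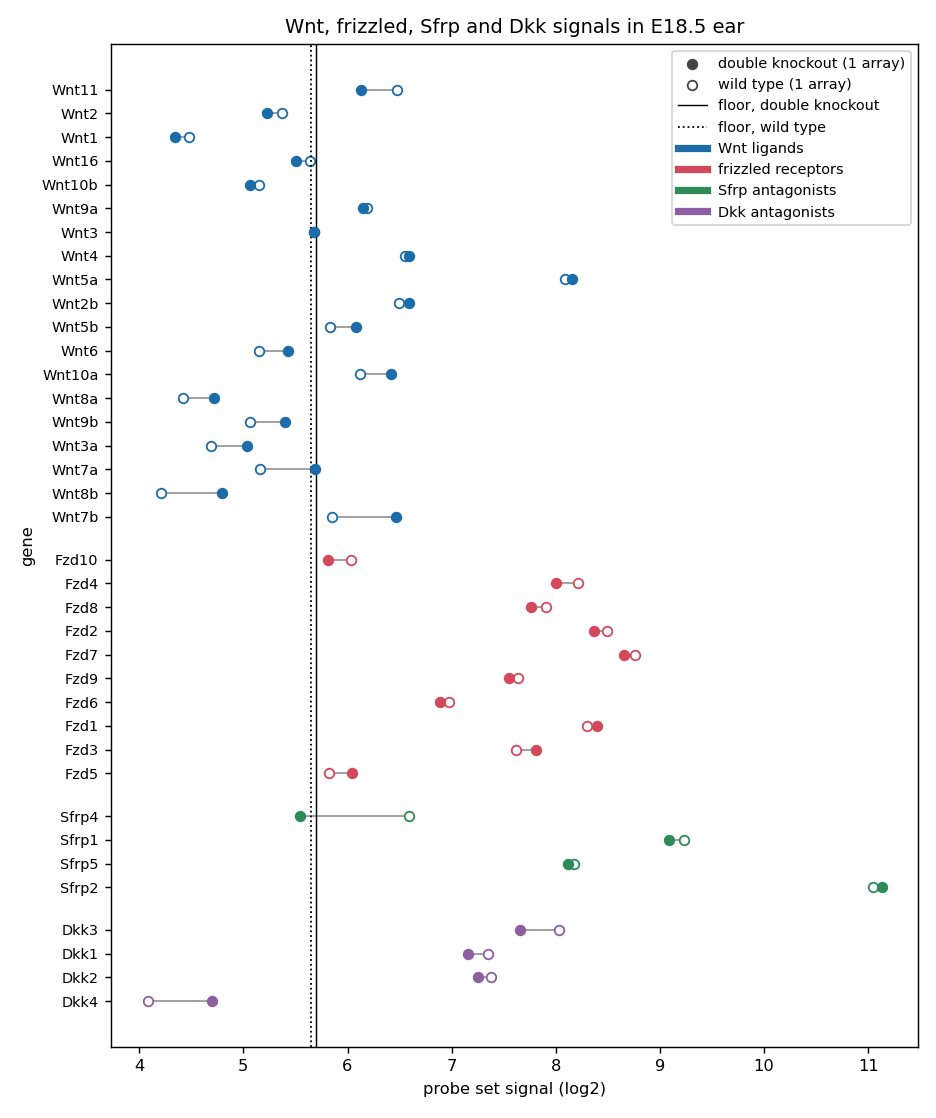
Log2 signal (x axis) of each of the 37 genes (y axis) in the double knockout (filled points) and the wild type (open points), 1 array each, with the floor of each array as a vertical line. Most pairs of points lie close together; Sfrp4, at 5.54 in the double knockout and 6.59 in the wild type, has the longest line.

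Wnt5a, Wnt5b and Wnt11 act mainly outside the beta-catenin branch, and their differences had both signs. Wnt5a, which drives outgrowth of limbs and face and the planar polarity of the cochlea, read 8.16 in the double knockout, against 8.09 in the wild type, a difference of 0.07. Its close relative Wnt5b, a regulator of cartilage, read 6.08 in knockout ear, against 5.83 in wild-type ear. The difference of 0.25 was at the 88.5th percentile of all genes above both floors. The wild-type value of Wnt5b stood 0.19 above that array's floor, so this is a difference between weak signals. Wnt11, which guides cell movements and kidney branching and, in the chick, the direction in which muscle fibres grow, read 6.12 in the double knockout, against 6.47 in the wild type. Its difference of -0.35, at the 7.63rd percentile, was the lowest of the ligands above both floors. Wnt5b and Wnt11 are the genes whose printed windows hold the TCF/LEF letters, and their differences had opposite signs.

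Wnt7b was the ligand furthest towards the double knockout. This gene, which acts in lung growth, in epithelia and in the growth of blood vessels into the brain, read 6.46 in the double knockout, against 5.85 in the wild type, a difference of 0.61 at the 98.1st percentile. The wild-type value stood 0.21 above that array's floor, so this is a difference between weak signals. Its relative Wnt7a, known for the dorsal side of the limb and for neurons, read 5.69 in knockout ear, against 5.16 in wild-type ear, under the floor on both arrays. Wnt8b, a gene of the embryonic forebrain, was also under both floors, at 4.80 in the double knockout and 4.21 in the wild type.

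The markers of cerebral cortex differed in the same direction as Wnt7b. All 6 of the 6 named on the array (Fezf2, Tbr1, Neurod2, Neurod6, Emx1 and Bcl11b) had the higher value in the double knockout, 4 of them at least 2-fold, with signals from 6.25 to 8.19 there, against 5.20 to 7.11 in the wild type, where 3 lay under the floor. Their summed signal was 10.00 on the log2 scale in the double knockout, against 8.70 in the wild type. Of 8 markers of neurons in general 7 had the higher value in the double knockout and 0 passed 2-fold, with a summed signal of 12.83 in knockout ear, against 12.55 in wild-type ear. Salivary gland markers, 7 of 8 at least 2-fold higher, had a summed signal of 13.40 in knockout ear, against 7.70 in wild-type ear. Epidermal markers, 2 of 7 at least 2-fold higher, had 10.54 in knockout ear, against 10.24 in wild-type ear. The 5 epidermal markers that passed a floor had a median difference of only 0.05, and Krt14 was lower in the double knockout. All 8 adipocyte markers had the higher value in the double knockout, 3 of them at least 2-fold, with a summed signal of 13.03 in knockout ear, against 12.24 in wild-type ear. These lists were chosen with earlier results of these data known, so their counts describe the arrays and lend no independent support. The part of these tissues in the difference of Wnt7b was not tested.

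The remaining ligands that passed a floor were Wnt10a, Wnt2b, Wnt9a, Wnt4 and Wnt3. All were within 2-fold, as were 12185 of the 12458 genes that passed a floor. Wnt10a, a ligand of teeth, hair and skin glands, read 6.41 in the double knockout, against 6.12 in the wild type, a difference of 0.30 at the 91.2nd percentile. Wnt2b, which acts in lung and eye development, read 6.59 in knockout ear, against 6.50 in wild-type ear. Wnt9a, a ligand of forming joints, read 6.15 in the double knockout, against 6.19 in the wild type, and is 1 of the 2 genes whose printed window holds CAGCTG. Wnt4, which acts in the kidney and the female gonad, has 2 probe sets. The brighter read 6.59 in the double knockout, against 6.55 in the wild type, and the other 6.19 in knockout ear, against 6.49 in wild-type ear, so that they disagree in sign, at 0.04 and -0.30. Wnt3, a ligand of early axis formation, read 5.68 on both arrays, between the floors, so that it has no difference. Its value was the same to the last deposited digit, as it was for 3.53% of all genes.

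The other 10 ligands lay under the floor on both arrays and have no measured fold. They were Wnt1, Wnt2, Wnt3a, Wnt6, Wnt7a, Wnt8a, Wnt8b, Wnt9b, Wnt10b and Wnt16, with signals from 4.34 to 5.69 in the double knockout and from 4.21 to 5.64 in the wild type. As deposited, 6 of the 10 had the higher value in the double knockout, or 60.0%, against 64.9% of all 7480 genes under both floors. A value under the floor does not show that a ligand is absent.

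Several of the Wnt genes sit side by side on a chromosome, and 8 of the 37 genes form 4 neighbouring pairs in RefSeq. Wnt6 and Wnt10a, neighbours on chromosome 1, had deposited differences of 0.28 and 0.30. Wnt1 and Wnt10b, on chromosome 15, had -0.13 and -0.09. On chromosome 11, Wnt3a and Wnt9a had 0.34 and -0.04, and Wnt9b and Wnt3 had 0.34 and 0.00. In all 4 pairs at least 1 gene lay under both floors, so these values describe the arrays at low signal.

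**Figure D2:**
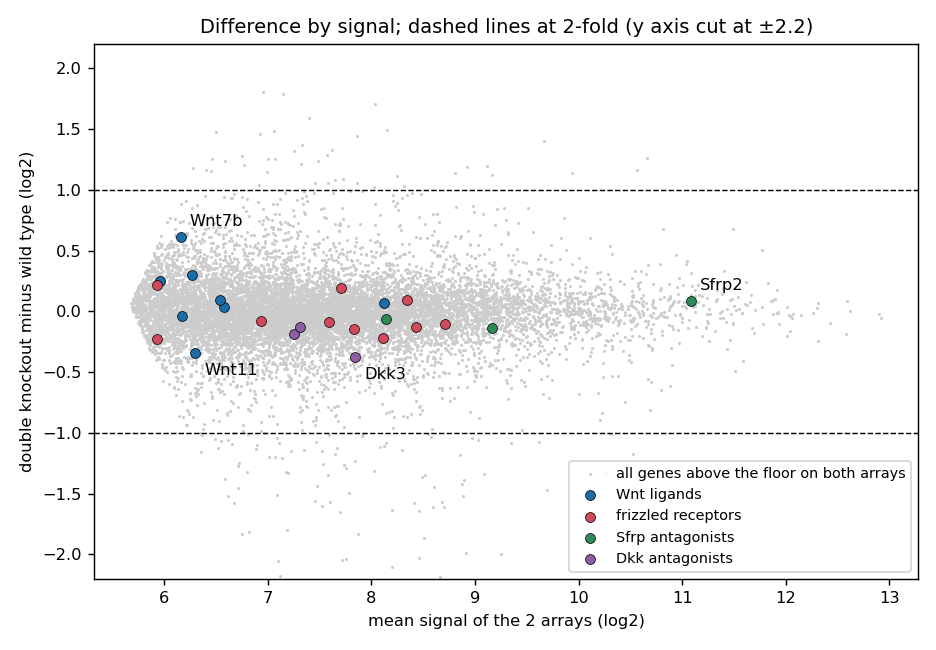
Difference between the double knockout and the wild type (y axis, log2) against the mean signal of the 2 arrays (x axis, log2) for the 11626 genes with signals over both floors (grey) and the 24 Wnt pathway genes among them (coloured by role). 26 genes with a difference beyond 2.2 in size fall outside the plot; the coloured points lie within the grey cloud, from -0.38 (Dkk3) to 0.61 (Wnt7b).

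All 10 frizzled receptors were above the floor on both arrays and all were within 2-fold, with differences from -0.22 to 0.22 and a median of -0.10. Of all 12458 genes that passed a floor, 12185 were within 2-fold, so the receptors are not set apart from the background in this. Fzd1, Fzd2 and Fzd7 form the closest sequence group and take part in palate, heart and neural tube closure. Fzd1 read 8.39 in the double knockout, against 8.30 in the wild type. Fzd2 read 8.37 in knockout ear, against 8.50 in wild-type ear. Fzd7 read 8.65 in knockout ear, against 8.76 in wild-type ear. The differences of these 3 receptors, from -0.13 to 0.10, were smaller than the spread between probe sets.

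Fzd3 and Fzd6 are the receptors of planar cell polarity, which together orient hair bundles in the inner ear and hairs in the skin. Fzd3 read 7.81 in the double knockout, against 7.61 in the wild type, a difference of 0.19. Fzd6 read 6.89 in the double knockout, against 6.97 in the wild type, a difference of -0.08. The 2 receptors thus had opposite signs, and only that of Fzd3 exceeded the spread between probe sets.

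Fzd5 and Fzd8 form another group and bind ligands of the beta-catenin branch. Fzd5, known for its role in the eye, read 6.04 in the double knockout, against 5.82 in the wild type, a difference of 0.22. Its wild-type value stood 0.18 above that array's floor, a weak signal. Fzd8 read 7.76 in knockout ear, against 7.90 in wild-type ear, a difference of -0.14. In the last group, Fzd4, Fzd9 and Fzd10, all 3 differences were below 0, as were 51.2% of those of all genes above both floors. Fzd4, the receptor of Norrin in the vessels of retina and cochlea, read 8.0 in the double knockout, against 8.22 in the wild type, a difference of -0.22 at the 15.5th percentile. Fzd9, which acts in bone and hippocampus, read 7.55 in knockout ear, against 7.64 in wild-type ear, less than the spread between probe sets. Fzd10, a receptor of the developing nervous system, read 5.81 in knockout ear, against 6.04 in wild-type ear. Fzd10 carries the other printed CAGCTG, and its difference was -0.22. Its double knockout value stood 0.11 above that array's floor, so this is a difference between weak signals, whereas Fzd4 stood 2.30 above it.

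Among the secreted antagonists, Sfrp4 had the largest difference, and the largest of all 26 genes above the floor. This gene, which limits Wnt signals in bone, read 5.54 in the double knockout, under the floor, against 6.59 in the wild type. Its fold is thus a bound, lower by at least 1.86-fold in the double knockout, or 2.07-fold lower as deposited, with no floor. With no floor, no other gene of the 37 passed 2-fold, against 1.40% of all 19938 genes lower and 0.461% higher. Sfrp4 has 1 probe set, so the value has no second reading.

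Markers of skeletal muscle, of tendon and fibrous tissue and of smooth muscle differed in the direction of Sfrp4, whereas cartilage markers had no common direction. Besides the muscle markers above, whose summed signal was 8.83 in the double knockout, against 14.50 in the wild type, all 8 markers of tendon and fibrous tissue were below 0 and 3 were at least 2-fold lower. Their signals ran from 6.23 to 11.89 in the double knockout and from 6.88 to 11.99 in the wild type, with summed signals of 13.39 in knockout ear, against 13.73 in wild-type ear. All 6 smooth muscle markers were below 0 and 1 was at least 2-fold lower, with signals from 6.27 to 9.81 in knockout ear, against 6.64 to 10.82 in wild-type ear. Their summed signal was 11.01 in knockout ear, against 11.72 in wild-type ear. Of the 8 cartilage markers 4 were below 0 and 4 above, with a median difference of 0.00, and 1 was at least 2-fold lower. Their summed signal was 11.69 in knockout ear, against 11.63 in wild-type ear. These lists too were chosen with earlier results of these data known, so their counts lend no independent support. The part of these tissues in the difference of Sfrp4 was not tested.

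The other Sfrp genes differed by less than the spread between probe sets. Sfrp1, Sfrp2 and Sfrp5 form the subfamily whose members can stand in for each other in the mouse embryo. Sfrp2 read 11.13 in the double knockout, against 11.04 in the wild type. Sfrp1 read 9.09 in knockout ear, against 9.23 in wild-type ear. Sfrp5 read 8.11 in knockout ear, against 8.17 in wild-type ear. Their differences of 0.09, -0.14 and -0.06 lay between the 25.3rd and the 69.0th percentile.

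The 3 Dkk genes above the floor all had differences below 0. Dkk1, the inhibitor of Lrp5 and Lrp6 that is needed for head formation, read 7.16 in the double knockout, against 7.35 in the wild type, a difference of -0.19. Dkk2, which also binds these co-receptors and acts in the eye, read 7.25 in knockout ear, against 7.38 in wild-type ear. Dkk3, a divergent member not thought to act through Lrp5 and Lrp6 in the usual way, read 7.65 in the double knockout, against 8.03 in the wild type. Its difference of -0.38, at the 6.61st percentile, was the lowest among the 24 genes above both floors. Dkk4, a Wnt target in skin appendages, lay under both floors, at 4.70 in knockout ear, against 4.08 in wild-type ear. As 51.2% of all genes above the floor had a difference below 0, a common sign among 3 genes is not set apart from the background.

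The rest of the pathway was read from 7 lists of 77 different genes, 76 of them named on the array and 71 past the floor on an array or both. Among these 71, 0 lay 2-fold or more lower and 0 lay 2-fold or more higher in the double knockout, and the median difference was 0.00. Over all 12458 genes that passed a floor, 1.71% were lower and 0.482% higher by 2-fold or more. Beside shares that small, a count of 0 among 71 genes is not set apart from the background. The co-receptors had a median of -0.04 over 6 genes. Ryk, a receptor for Wnt5a in axon guidance, read 9.22 in the double knockout, against 9.27 in the wild type. Lrp6 read 8.78 in knockout ear, against 8.70 in wild-type ear. Lrp5 read 8.76 in knockout ear, against 8.88 in wild-type ear.

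R-spondins amplify Wnt signals through Lgr receptors and the ubiquitin ligases Znrf3 and Rnf43, and the 8 genes of this list above the floor had a median of -0.15, with 5 below 0 and 3 above. Lgr5, a marker of Wnt-responsive progenitors that include supporting cells of the cochlea, read 8.47 in the double knockout, against 8.79 in the wild type. Lgr4 read 8.31 in knockout ear, against 8.46 in wild-type ear. Znrf3 read 7.34 in knockout ear, against 7.51 in wild-type ear. These genes of highest signal were all lower in the double knockout, whereas the largest difference of the list was that of the ligand Rspo3, named after its values were seen. Rspo3 read 7.45 in the double knockout, against 7.0 in the wild type, and was 1.36-fold higher. Rnf43, also named after its values were seen, read 6.88 in knockout ear, against 6.57 in wild-type ear, a difference of 0.31. Of the genes that release or carry Wnt proteins, the glypican Gpc3 read 10.38 in knockout ear, against 10.62 in wild-type ear. Its relative Gpc6 read 9.02 in knockout ear, against 8.94 in wild-type ear. Wls, the escort that takes Wnt proteins to the cell surface, read 8.69 in knockout ear, against 8.85 in wild-type ear. The 6 genes of this list above the floor had a median of -0.13. Gpc4, another glypican, named after its values were seen, read 8.10 in the double knockout, against 8.76 in the wild type, and was 1.58-fold lower.

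Other antagonists had a median of -0.03 over 10 genes. Igfbp4, a binding protein of insulin-like growth factors that also restrains Wnt receptors, read 10.50 in the double knockout, against 10.55 in the wild type. Apcdd1, a membrane inhibitor and Wnt target, read 8.93 in knockout ear, against 8.68 in wild-type ear. Kremen1, a receptor of Dkk1, read 8.15 in knockout ear, against 8.73 in wild-type ear. The furthest value in this list, named after it was seen, was that of Draxin, an axon guidance protein of the brain that binds Lrp6, which read 7.47 in the double knockout, against 6.67 in the wild type, and was 1.74-fold higher.

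Intracellular transducers had a median of -0.03 over 21 genes. Ctnnb1, which encodes beta-catenin, read 11.03 in the double knockout, against 10.88 in the wild type. Its kinase Gsk3a read 9.89 in knockout ear, against 9.92 in wild-type ear. The adaptor Dvl3 read 9.67 in knockout ear, against 9.74 in wild-type ear. Genes that beta-catenin commonly switches on had a median of 0.06 over 13 genes, which was -0.16 over the 9 left with the floor at the 75th percentile. Axin2, the target most often used as a readout and named for that reason beyond the rule, read 7.29 in the double knockout, against 7.23 in the wild type. The cell cycle gene Ccnd1 read 9.53 in knockout ear, against 9.88 in wild-type ear. Axin2, Lgr5 and Ccnd1 had differences of 0.06, -0.32 and -0.35, and Apcdd1, also in this list, had 0.25. Of the 13 targets, 8 were above 0 and 5 below, so they gave no common direction.

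Planar cell polarity genes had a median of 0.08 over 12 genes. All were within 2-fold, as were 12185 of the 12458 genes that passed a floor. The protocadherins Fat4 and Dchs1 bind each other between neighbouring cells. Fat4 read 9.46 in the double knockout, against 9.24 in the wild type, and Dchs1 read 8.67 in knockout ear, against 8.74 in wild-type ear. Vangl2, whose loss misorients cochlear hair bundles, read 8.09 in knockout ear, against 7.80 in wild-type ear, a difference of 0.29. Celsr3, a cadherin of neurons named after its values were seen, read 6.84 in knockout ear, against 6.21 in wild-type ear, and was 1.55-fold higher in the double knockout. Celsr3, Draxin and Gpc4 were the only genes of the 71 past 1.5-fold, 2 higher and 1 lower. The background at that fold, given above for the ligands and receptors, was 2.25% of all genes higher and 3.62% lower.

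The 7 lists also differed in how many of their genes above both floors had a difference larger than the standard deviation between probe sets, a share of 40.5% over all genes. It was 69.2%, or 9 of 13, among the beta-catenin targets and 62.5%, or 5 of 8, among the R-spondins and their receptors. It was 44.4%, or 4 of 9, among the other antagonists and 41.7%, or 5 of 12, among the planar cell polarity genes. The genes of secretion and carriage had 33.3%, or 2 of 6, the transducers 23.8%, or 5 of 21, and the co-receptors 0 of 6. Some genes stand in more than 1 list, and Lgr5, Rnf43 and Znrf3, all past that spread, count in both of the 2 highest shares. With each gene counted once, the share was 35.7%, or 25 of 70. These are counts over few genes from 1 pair of arrays and were not tested.

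**Figure D3:**
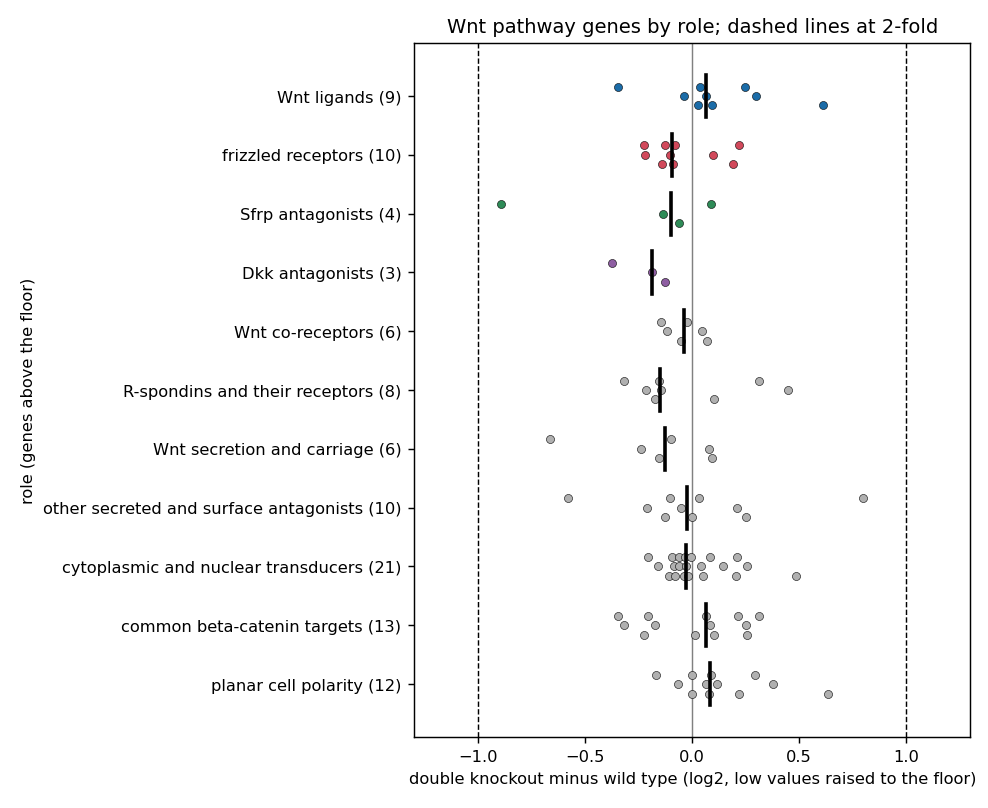
Difference between the double knockout and the wild type (x axis, log2, low values raised to the floor) for each gene that passed the floor on an array or both, by role (y axis, number of genes in brackets), with the median of each role as a black bar and 2-fold as dashed lines. No point reaches a dashed line; Sfrp4, at -0.89 with its double knockout value raised to the floor, and Draxin, at 0.80, lie nearest.

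**Figure D4:**
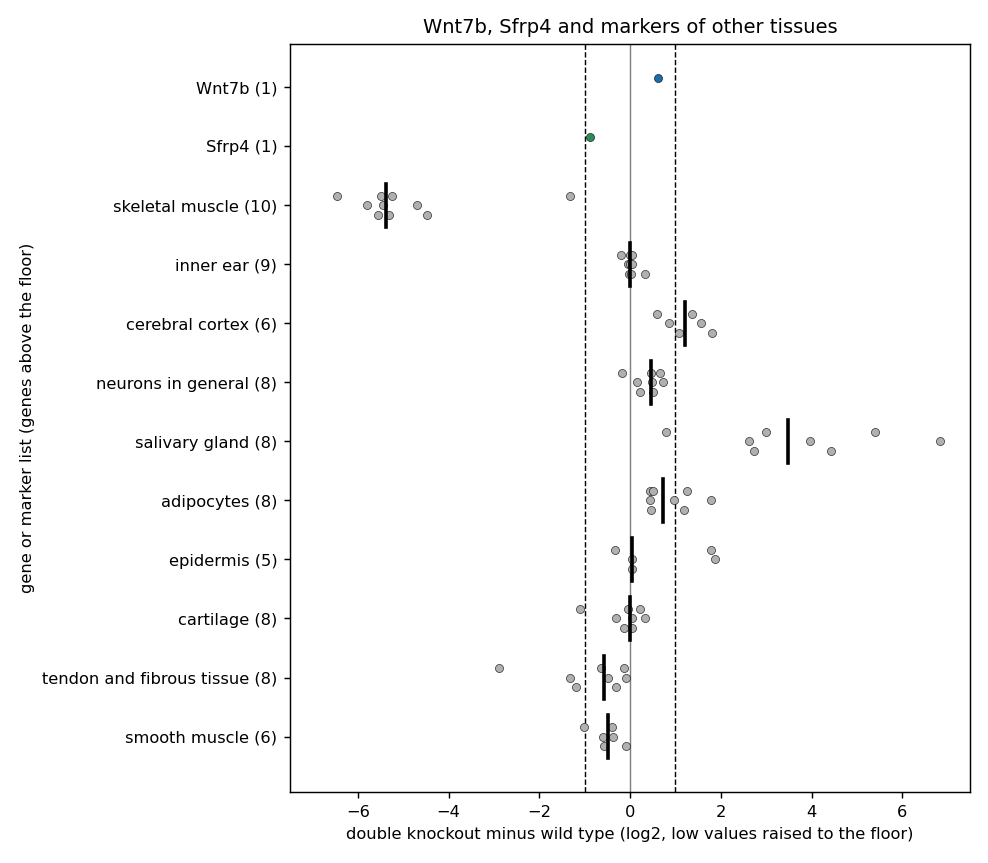
The same difference (x axis, log2) for Wnt7b, Sfrp4 and the marker genes of each tissue (y axis, number of genes above the floor in brackets), with list medians as black bars. Skeletal muscle markers, with a median of -5.38, and salivary gland markers, with a median of 3.48, lie far beyond Sfrp4 and Wnt7b, while inner ear markers lie around 0.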

How the data were processed

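The deposited table holds 1 log2 value per probe set and array, made by the authors with MAS5 per the submitters' processing notes, with no version. Probe set numbers and annotation are those of a whole-transcript gene array, a type without the mismatch probes MAS5 uses, so how the values were made is not settled. Their range set the base of the logarithm. A background correction, a between-array normalization or a build is recorded neither in the labels nor in the table. The arrays' medians were 5.70 in the double knockout and 5.65 in the wild type, so the values were used as deposited.

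Genes were named by the platform annotation. The probe set of highest mean linear signal stood for each gene; all 37 genes matched RefSeq by Entrez identifier and 0 symbols needed updating. A gene entered where it lay above the floor, the 50th percentile of each array, on at least 1 array. Genes were counted at 2-fold. The 26 genes above the floor were all named; of each pathway list, the rule named the 3 genes of highest signal and any past 2-fold. Members and lists were chosen with earlier results of these data known. Alternatives were 4 scalings, 2 other floors, no floor, a pseudocount, the median of several probe sets, and 1.5-fold or 3-fold thresholds. The calculation (Python 3.11.15, pandas 2.3.3) was tested on simulated data, in which the planted shifts were larger than any difference of the 37 genes. 1 array per genotype limits the precision, and no test was run.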

Additional observations from a re-analysis of the deposited data

How the results depend on the processing

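Of the 26 genes above the floor, 23 had the same sign under every alternative that kept them. The exceptions were Wnt9a, at -0.04 and at 0.00 with a pseudocount, and Wnt4, at 0.04 and at -0.13 with the median over its 2 probe sets, and Wnt3, whose deposited values are equal, so that its sign reflects only the scaling and the gap between the floors. The count of genes at least 2-fold lower was 1, Sfrp4, with the floor at the 25th percentile and with no floor, and 1 at the 1.5-fold threshold; the count higher was 1, Wnt7b, at 1.5-fold, where 3 other pathway genes also passed. With a pseudocount Sfrp4 had -0.57 and Wnt7b 0.38. The median of all members ran from -0.09 to 0.00, that of the ligands from 0.07 to 0.10, that of the receptors from -0.11 to -0.07 and that of the antagonists from -0.14 to -0.06. With the floor at the 75th percentile 13 members were left, 1 of them a ligand. Signal over the floor limits the ligands most. No paired analysis was possible because each genotype has 1 array.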
